A study of Mus musculus with 6 samples.

Results

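The leukocyte integrins treated here are 7 of the 43274 genes in the deposited tables: Itgam, Itgax, Itgal, Itgb2, Itga4, Itgb7 and Itgae, the integrin chains that are restricted to or typical of white blood cells. They were chosen by name with the comparison of the genotypes already known, so their differences between genotypes are a description: the calls of the fit are stated beside the values and not read as a test. The RNA came from bulge stem cells (SCs) of the hair follicle, gated in FACS on CD34 and on a high α6 integrin signal after isolation from mouse epidermis at postnatal day 21, on a mixed C57Bl6 and 129/Sv background. All mice carried K5-Cre. The 3 control libraries (ILK +/- in the labels) came from mice in which 1 Ilk allele was floxed, and the 3 ILK-K5 libraries (ILK -/-) from mice in which 2 were. The K5 promoter drives Cre in basal keratinocytes, so other cell types of the skin are not its target, and the gate used antibodies to CD49f and CD34 and the dye 7AAD with no antibody named against a leukocyte marker. In RNA of sorted cells, fewer cells of a type and less RNA per cell cannot be told apart.

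Integrins are pairs of 1 α and 1 β chain that bind cells to matrix or to other cells. Itgam (αM, CD11b), Itgax (αX, CD11c), Itgal (αL) and Itgad (αD) pair with Itgb2 (β2, CD18), and the pairs serve neutrophils, monocytes, macrophages, dendritic cells and lymphocytes in adhesion to endothelium, in contact with other immune cells and in the uptake of complement-coated particles. Itga4 pairs with Itgb1, which nearly all cells make, or with Itgb7, and guides lymphocytes into tissue, while Itgae pairs with Itgb7 and holds T cells and some dendritic cells to E-cadherin on epithelium.

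Reads counted on genes ranged from 8228019 to 11969072 per library, and 1 read was worth between 0.726 and 1.52 normalized counts, the unit used below for values between libraries. Mitochondrial genes took between 11.5% and 27.6% of the reads. Ilk, the deleted gene (chr7:105736592-105742925, plus strand, GRCm38), stood at 10.6, 16.7 and 38.5 normalized counts in the control libraries and at 14.8, 30.9 and 29.2 in the ILK-K5 libraries. Of its 2744 exon bases, 89.7% are shared with Rrp8 and Taf10 on the other strand, so this level does not check the genotype. Summed levels of 5 basal keratinocyte markers ran from 43020 to 88545 in control and from 43760 to 65380 in ILK-K5 libraries, with none called by limma (1 at an unadjusted p under 0.05). Of 8 bulge SC markers only Cd34 was called, and it fell (mean 1639 against 430 normalized counts, log2 fold change -1.90, limma adjusted p = 0.0239). The summed level of the 8 ran from 46617 to 109568 in control and from 23547 to 50244 in ILK-K5 libraries. Of the 8, 2 had all ILK-K5 libraries below all control libraries, against 6.95% of all genes in the fit.

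The β2 integrins made up most of the difference among the members. Itgam, Itgax, Itgal and Itgb2 were each higher in all 3 ILK-K5 libraries than in any control library, by between 13.1-fold and 89.0-fold of the means. Summed over the 7 genes, the level was 504.6, 328.4 and 143.7 normalized counts in the control libraries and 4193, 3710 and 3433 in the ILK-K5 libraries. Of the 7 members, 6 reached an average of 10 normalized counts and entered the limma fit, and 5 were called higher at an adjusted p of at most 0.05. Across all 16368 genes of the fit, 2.93% were called higher and 0.599% lower, 3.53% in all. Of the 7 members, 5 had all ILK-K5 libraries above all control libraries and none had all below, against 10.9% and 6.95% of all genes in the fit. Nothing is read from these shares, since the members were chosen on this contrast, and 2 of the 6 fitted members had a control mean under 10 and entered the fit through the ILK-K5 libraries. The log2 fold changes of the 6 fitted members had a median of 4.82, and those of all genes in the fit a median of 0.01.

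**Figure D1:**
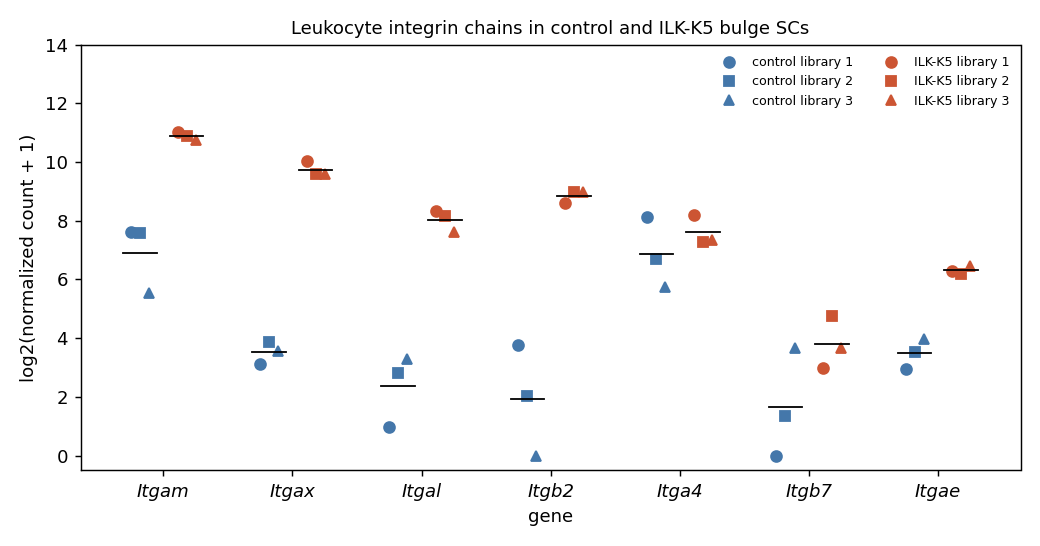
Log2 of the normalized count plus 1 of each of the 7 leukocyte integrin genes, with 1 point per library, 3 control and 3 ILK-K5. The points of the genotypes stand apart for Itgam, Itgax, Itgal, Itgb2 and Itgae and overlap for Itga4 and Itgb7.

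Itgam encodes αM, the chain of the complement receptor of myeloid cells (ENSMUSG00000030786, chr7:128062640-128118491, plus strand). It was read at 196.8, 190.1 and 45.7 normalized counts in control libraries 1 to 3 and at 2058, 1903 and 1712 in ILK-K5 libraries 1 to 3. The lowest ILK-K5 library thus lay far above the highest control library, and the third control library lay well below the other two. The means were 144 ± 85.4 and 1891 ± 173 (SD, n = 3), 13.1-fold apart, and the fitted log2 fold change was 3.96 with a standard error (SE) of 0.51. By mean FPKM, Itgam stood at rank 10020 of the 16368 fitted genes in control and at rank 1489 in ILK-K5 libraries. Of its 5024 exon bases, 3450 (68.7%) also belong to Gm49368, an overlapping gene model on the same strand in GENCODE release M21, and how reads were divided between them is not given in the sources used here.

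Per length, the ratio of Itgam to Ptprc, which encodes CD45, the surface phosphatase of all nucleated blood cells, was not the same in all libraries. Ptprc stood at 0.157, 0.128 and 0.284 FPKM in control and at 8.01, 6.22 and 5.66 FPKM in ILK-K5 libraries, where Itgam was at 3.16, 3.06 and 0.735 and then at 33.1, 30.6 and 27.5 FPKM. Itgam was above Ptprc in all 6 libraries, with the largest ratios in control libraries 1 and 2. Adgre1, which encodes the macrophage antigen F4/80, was at 0.030, 0.529 and 0.504 FPKM in control and at 27.1, 23.9 and 21.7 FPKM in ILK-K5 libraries. The part of the overlapping gene model in the control level of Itgam was not tested.

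Itgax encodes αX, the chain by which dendritic cells and many tissue macrophages are recognised (ENSMUSG00000030789, chr7:128129547-128150657, plus strand). It was at 7.72, 13.7 and 10.9 normalized counts in control libraries, which correspond to 8, 9 and 15 reads, and at 1043, 770.5 and 766.6 in ILK-K5 libraries. The control libraries lay close together, all near the level of a few reads, and the ILK-K5 libraries did not approach them. The means of 10.8 ± 2.99 and 860 ± 158 (SD, n = 3) were 79.9-fold apart, with a fitted log2 fold change of 6.21 (SE 0.36), the smallest error of the 6 fitted members. Itgax moved from rank 15613 to rank 2085 of the fitted genes.

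Itgal encodes αL, the chain of LFA-1, which binds ICAM-1 and is carried by most leukocytes and in particular by T cells (ENSMUSG00000030830, chr7:127296260-127335138, plus strand). Control libraries held 0.965, 6.08 and 8.71 normalized counts, or 1, 4 and 12 reads, and ILK-K5 libraries 323, 288 and 194. Control library 1 was the lowest and ILK-K5 library 3 the lower end of its group, with a wide gap between the genotypes. The means were 5.25 ± 3.94 and 268 ± 66.9 (SD, n = 3), 51.1-fold apart, and the log2 fold change was 5.68 (SE 0.65).

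Itgb2 encodes β2, the chain that all of these α chains need to reach the cell surface (ENSMUSG00000000290, chr10:77530252-77565708, plus strand). It was at 12.5, 3.04 and 0 normalized counts in control libraries, from 13, 2 and 0 reads, and at 389, 498 and 499 in ILK-K5 libraries. Of the 6 fitted members it had the largest log2 fold change, 6.92, and the largest error (SE 0.83), with 0 reads in 1 control library. Its means were 5.19 ± 6.54 and 462 ± 63.0 (SD, n = 3), 89.0-fold apart, and it moved from rank 15939 to rank 2906. Over the settings other than leaving out 1 library, the log2 fold change of Itgb2 lay between 5.70 and 8.18. The ends of this range came from pseudocounts of 5 and 0.1, so that its size depends on how low counts are treated. Over the same settings that of Itgam lay between 3.69 and 4.26.

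The 4 α chain genes of the β2 family lie on chromosome 7 on the same strand. Itgam ends 11055 bases before Itgax, and Itgax ends 3718 bases before Itgad (chr7:128154376-128223816), with no protein-coding gene between neighbours. Itgad, the β2 partner that is no member, was at 5.79, 3.04 and 0.726 normalized counts in control libraries and at 2.28, 10.8 and 8.77 in ILK-K5 libraries. Its means of 3.19 ± 2.53 and 7.28 ± 4.45 normalized counts (SD, n = 3) overlapped between genotypes, it was too low for the fit, and 19.7% of its exon bases lie in other gene models. The gene next to Itgax thus stayed near the level of a few reads in the libraries in which Itgax reached 860. Itgal lies 727501 bases before Itgam on the same chromosome, with 38 protein-coding genes between them.

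The sequences before the start sites of Itgam and Itgax are shown because the pair of neighbouring genes was higher in the same libraries, and that of Itga4 because it was not called. RefSeq promoter sequences (GRCm38.p6) matched 4 of the 7 members by symbol: Itga4, Itgam, Itgax and Itgb7. The 250 bases before each start are given 5′ to 3′ on the strand of the gene, and capitals mark the motifs found, read on either strand.
Itgam, chr7:128062390-128062639, plus strand: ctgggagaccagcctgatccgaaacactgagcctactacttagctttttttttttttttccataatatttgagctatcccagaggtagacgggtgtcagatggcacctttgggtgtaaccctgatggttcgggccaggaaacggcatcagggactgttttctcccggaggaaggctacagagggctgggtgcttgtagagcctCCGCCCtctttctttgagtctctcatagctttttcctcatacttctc
Itgax, chr7:128129300-128129549, plus strand: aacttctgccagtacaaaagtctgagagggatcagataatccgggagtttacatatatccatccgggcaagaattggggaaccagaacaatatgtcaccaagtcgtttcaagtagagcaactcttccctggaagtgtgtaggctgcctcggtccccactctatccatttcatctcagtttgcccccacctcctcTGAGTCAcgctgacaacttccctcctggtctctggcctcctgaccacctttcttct
Itga4, chr2:79255176-79255425, plus strand: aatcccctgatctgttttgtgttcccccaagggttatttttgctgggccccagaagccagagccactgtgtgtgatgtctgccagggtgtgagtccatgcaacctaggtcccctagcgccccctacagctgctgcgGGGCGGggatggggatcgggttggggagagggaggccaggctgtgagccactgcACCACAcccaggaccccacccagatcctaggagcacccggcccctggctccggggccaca
In the stretch of Itgam the capitals mark GGGCGG, a Sp1 motif, on the minus strand, 47 bases before the start. In that of Itgax they mark TGANTCA, the AP-1 motif, 56 bases before the start. In that of Itga4 they mark GGGCGG on the plus strand, 114 bases before the start, and TGTGGT, a Runx motif, on the minus strand, 60 bases before it. Of the 32851 promoter stretches of this length in the reference table, 32.7% hold GGGCGG, 6.75% TGANTCA and 14.05% TGTGGT. The string AGGAAGT, the only form searched for PU.1 and Ets factors, is held by 7.69% of all stretches. The TATA box motif TATAAA is held by 12.4%. Neither has a match in the 4 members' stretches, and Itgb7 has no match to any of the 5 motifs. Shorter or related strings were not searched. The letters GAGGAA do occur in the stretch of Itgam and GGAAGT in that of Itgax. The missing match to AGGAAGT thus does not show that such related sequences are absent. A match is a description of the letters and says nothing of binding.

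Of the other members, Itgae differed and Itga4 and Itgb7 overlapped between genotypes. Itga4 encodes α4, which leukocytes use to bind VCAM-1 and fibronectin (ENSMUSG00000027009, chr2:79255426-79333123, plus strand). It stood at 279.8, 103.4 and 52.2 normalized counts in control and at 295, 153 and 162 in ILK-K5 libraries. Control library 1 lay above 2 of the 3 ILK-K5 libraries, and the spread within control libraries was as wide as their mean. The means were 145 ± 119 and 203 ± 79.6 (SD, n = 3), 1.40-fold apart, with a log2 fold change of 0.75 (SE 0.58) that was not called. Of the exon bases of Itga4, 8.04% are shared with Cerkl on the other strand.

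Itgb7 encodes β7, the chain of the gut-homing pair and of the partner of αE (ENSMUSG00000001281, chr15:102215995-102231944, minus strand). It was at 0, 1.52 and 11.6 normalized counts in control and at 6.83, 26.2 and 11.7 in ILK-K5 libraries, from between 0 and 16 and between 6 and 34 reads. The third control library lay above the first ILK-K5 library and level with the third. With a mean of 9.65 over the 6 libraries Itgb7 missed the limit of the fit, and when all genes were fitted its log2 fold change was 2.14 with an SE of 1.07.

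Itgae encodes αE, CD103, the chain of tissue-resident T cells and a subset of dendritic cells (ENSMUSG00000005947, chr11:73090583-73147446, plus strand). It was at 6.75, 10.6 and 14.5 normalized counts in control libraries, from 7, 7 and 20 reads, and at 77.4, 71.0 and 87.7 in ILK-K5 libraries. The ILK-K5 libraries lay close together and all above the control libraries. The means of 10.6 ± 3.88 and 78.7 ± 8.43 (SD, n = 3) were 7.40-fold apart, and the log2 fold change was 2.83 (SE 0.50). Itgae was called with all 6 libraries but not without control library 2 or without any 1 of the ILK-K5 libraries, where its log2 fold change was 2.86, 2.84, 2.90 and 2.75.

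Levels of different genes were set side by side per length, as FPKM. Within the ILK-K5 libraries the order was Itgam at 33.1, 30.6 and 27.5 FPKM, then Itgax at 26.4, 19.5 and 19.4, then Itgb2 at 13.1, 16.7 and 16.8. Itgal followed at 5.20, 4.62 and 3.12, Itgae at 1.73, 1.59 and 1.96, Itga4 at 2.16, 1.12 and 1.19, and Itgb7 at 0.255, 0.980 and 0.437. Neighbours in this order did not overlap except Itgae and Itga4. Per kilobase of reference exon instead, Itgax (217.1, 160.4 and 159.6 normalized counts) and Itgb2 (127.6, 163.2 and 163.4) overlapped too. In control libraries Itgam, at 3.16, 3.06 and 0.735 FPKM, and Itga4, at 2.05, 0.759 and 0.383, had the highest means and overlapped, and the other members stood at 0.434 FPKM or less, which Itgb7 reached in control library 3, above Itga4.

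**Figure D2:**
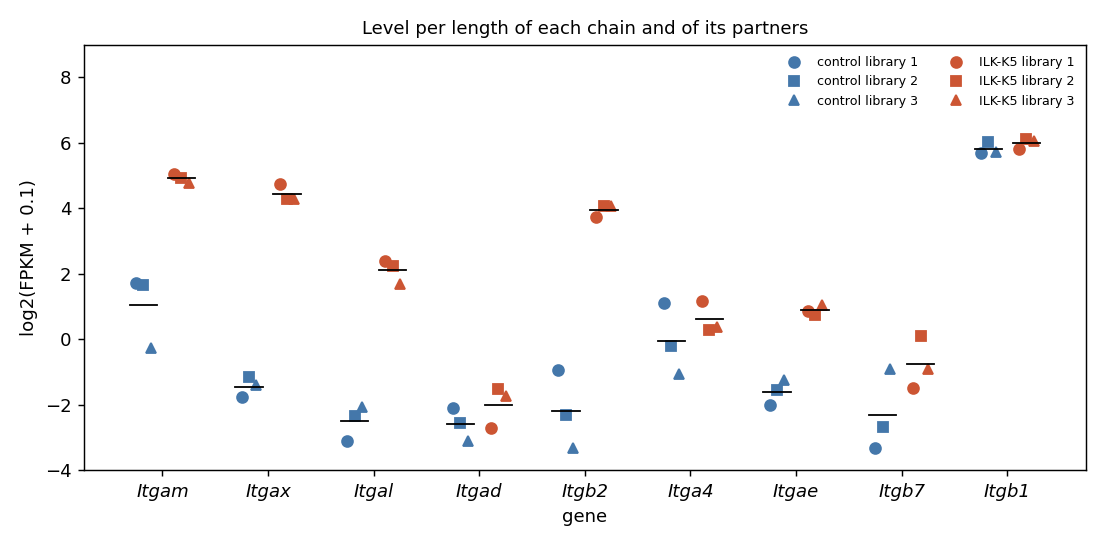
Level per length, as log2 of FPKM plus 0.1, of the β2 chain and its 4 α partners and of Itga4, Itgae, Itgb7 and Itgb1, with 1 point per library and a line at the mean of the 3 log values of each genotype. In ILK-K5 libraries Itgam, Itgax and Itgb2 are the highest of the members and Itgad stays at the bottom, while Itgb1 is level between genotypes.

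Within ILK-K5 libraries Itgam and Itgax held most of the α transcript that can pair with β2. Of the summed FPKM of the 4 α chains, Itgam held 51.1%, 55.6% and 54.8% (53.8% ± 2.41, SD, n = 3) and Itgax 40.8%, 35.5% and 38.6% (38.3% ± 2.67). Itgal held 8.02%, 8.41% and 6.20%, and Itgad 0.080%, 0.446% and 0.396%. The share of Itgam was 90.2%, 85.6% and 63.0% in control libraries, in which the other chains rested on 15 reads or fewer each. Itgb2 stood at 0.202, 0.304 and 0.333 of the summed level of its partners in ILK-K5 libraries (0.280 ± 0.069, SD, n = 3), so there was less β2 than α transcript per length in every library, and at 0.120, 0.029 and 0 in control libraries. Computed from reads per exon base, the mean ratio in ILK-K5 libraries was 0.258. By this measure Itgam held 63.1% ± 2.21 and Itgax 29.8% ± 2.36 of the α transcript (SD, n = 3), so the shares depend on the length used. Exon bases shared with other genes were left out here, but not the 68.7% of Itgam exon bases shared with Gm49368. With 3 libraries per genotype an exact permutation test cannot go below p = 0.1, and none was run on the ratios.

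The β1 chain, which pairs with α4, was near the same level in both genotypes. Itgb1 was at 2239 ± 298 normalized counts in control and 2542 ± 286 in ILK-K5 libraries (SD, n = 3; log2 fold change 0.18, SE 0.25, limma adjusted p = 0.885). Itga4 reached only 0.040, 0.012 and 0.007 of the FPKM of Itgb1 in control and 0.039, 0.016 and 0.018 in ILK-K5 libraries. The ratio of Itgae to its partner Itgb7 was 6.79, 1.62 and 4.49 in ILK-K5 libraries and 4.19 and 0.748 in control libraries 2 and 3, and Itgb7 had no read in control library 1. Of the summed FPKM of 27 integrin genes, the 7 members took 3.12%, 2.56% and 1.29% in control libraries and 30.9%, 25.5% and 24.2% in ILK-K5 libraries. Itga6, the α6 chain of the sort, took 12.4%, 12.2% and 15.6% and then 10.3%, 11.5% and 11.6%.

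Summed levels of general leukocyte and myeloid markers were, like the β2 integrins, higher in the ILK-K5 libraries. Many of these markers entered the fit through the ILK-K5 libraries alone, so the counts of calls are a description. A control mean under 10 normalized counts was found for 5 of the 8 fitted general leukocyte markers and 8 of the 14 of macrophages and monocytes. The same held for 3 of the 4 of neutrophils, 3 of the 9 of Langerhans and dendritic cells and 3 of the 8 of T cells. Among the platelet markers it held for Pf4. Of all genes in the fit, 2.93% were called higher. Over the 8 general markers, the summed level ran from 103 to 237 normalized counts in control and from 3240 to 4128 in ILK-K5 libraries, and 6 of the 8 were called higher. Of 15 macrophage and monocyte markers 14 were fitted and 12 called higher, with sums of 628 to 1090 and 12138 to 15775. Of 11 markers of Langerhans and dendritic cells, 9 were fitted and 3 called higher (sums 545 to 1363 and 12323 to 19949), and Cd207, which defines Langerhans cells, had means of 39.5 and 222 normalized counts and was not called (limma adjusted p = 0.148). Neutrophil markers summed to between 33.4 and 56.9 in control and between 219 and 298 in ILK-K5 libraries (2 of 4 fitted called higher), with Ly6g and Retnlg at 0 in all 3 ILK-K5 libraries. T cell markers summed to between 193 and 231 and between 457 and 547, and 2 of 8 fitted were called higher, while Cd3e, a chain of the T cell receptor complex, was at 2.89, 6.08 and 49.3 in control and 44.4, 57.1 and 89.6 in ILK-K5 libraries and overlapped. Markers of B cells summed to between 21.3 and 65.6 in control and between 10.7 and 25.5 in ILK-K5 libraries, and those of mast cells to at most 3.04 and at most 23.4, with Cpa3 and Tpsb2 at 0 in all 6 libraries. Markers of eosinophils and natural killer cells summed to at most 23.9, and none entered the fit. Platelet markers summed to between 7.7 and 21.3 and between 118 and 255, where Pf4 was called higher and Gp9 was at 0 in all 6 libraries. No marker of fibroblasts or endothelial cells was called by limma (1 of each list at an unadjusted p under 0.05), with sums of 678 to 736 and 1060 to 1407 for fibroblasts and of 60.2 to 179 and 81.8 to 93.4 for endothelial cells. Melanocyte markers summed to between 672 and 1281 in control and between 264 and 458 in ILK-K5 libraries, and 1 of the 4 fitted, Mitf, was called lower. The part of each of these cell types in the levels of the integrins was not tested.

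Set against the general leukocyte markers, the members did not all go the same way. The control sums of these markers were themselves low, from 103 to 237 normalized counts. As a percentage of the summed 8 markers of the same library, Itgax was at 6.84%, 13.2% and 4.60% in control and at 31.1%, 18.7% and 23.7% in ILK-K5 libraries. Itgal was at 0.855%, 5.88% and 3.68% and then at 9.64%, 6.97% and 5.98%, and Itgb2 at 11.1%, 2.94% and 0% and then at 11.6%, 12.1% and 15.4%. For these genes every ILK-K5 library lay above every control library, with few control reads behind the comparison. The gap was narrow for Itgal (5.98% against 5.88%) and for Itgb2 (11.6% against 11.1%). Itgam instead went from 174%, 184% and 19.3% to 61.4%, 46.1% and 52.9%, and Itga4 from 248%, 100% and 22.1% to 8.79%, 3.70% and 4.99%. Itga4 was thus lower relative to the leukocyte markers in every ILK-K5 library, and Itgam in comparison with 2 of the 3 control libraries. Itgae, at 5.98%, 10.3% and 6.13% and then at 2.31%, 1.72% and 2.71%, was also lower in each ILK-K5 library, with 7, 7 and 20 reads behind its control values.

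The genes with the most similar profile were sought for the members by the root mean square difference of log2 values, centred on each gene's mean, over the 6 libraries. For Itgb2 these were Pira2 (0.55), Ccl9 (0.68) and Msr1 (0.71), of which Msr1 encodes a scavenger receptor of macrophages and Ccl9 a chemokine. For Itgae they were Cd276 (0.25), Xcr1 (0.29), the chemokine receptor of a subset of dendritic cells, and Soat1 (0.30). Xcr1 was at 4.82, 7.60 and 7.98 normalized counts in control and at 41.0, 29.3 and 47.7 in ILK-K5 libraries, and was not called (limma adjusted p = 0.0628). For Itga4 the closest included Ipcef1 (0.10) and Jund (0.14), and for Itgb7 the closest were Crabp2 (0.26), Ppp1r18 (0.27) and Tppp3 (0.27). Jund ran from 853.9 in control library 1 to 160.4 in control library 3, the same order of control libraries as Itga4. In ILK-K5 libraries 2 and 3 the order differed, with Jund at 520 and 410 and Itga4 at 153 and 162. These genes were picked for their likeness, so a shared order of libraries follows from the choice and nothing is read from it.

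Among the other integrin chains, most were not called. Of 20 listed chains 15 were fitted and 2 called, Itga9 and Itga5, both of them higher, beside 2.93% of all genes in the fit. The median of the 15 log2 fold changes was 0.36. Itga9, which binds tenascin and VCAM-1, rose from 9.68 ± 7.93 to 136 ± 36.2 normalized counts (SD, n = 3; log2 fold change 4.07, SE 0.73, limma adjusted p = 0.0166). With a control mean under 10 normalized counts, Itga9 entered the fit through the ILK-K5 libraries, so its call is a description. Itga5, the α chain of the fibronectin receptor, was at 76.2, 56.3 and 76.9 in control and at 195, 369 and 255 in ILK-K5 libraries (log2 fold change 1.92, SE 0.36, limma adjusted p = 0.0187). The number called fell to 1 without control library 2 or ILK-K5 library 1 and to 0 without ILK-K5 library 2 or 3. The call of Itga9 was lost without any 1 of the ILK-K5 libraries (limma adjusted p from 0.0603 to 0.0795), and the call of Itga5 without control library 2, ILK-K5 library 2 or ILK-K5 library 3 (from 0.0789 to 0.132). Itga6, the chain used in the sort, had a log2 fold change of 0.36 (SE 0.25, limma adjusted p = 0.699).

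**Figure D3:**
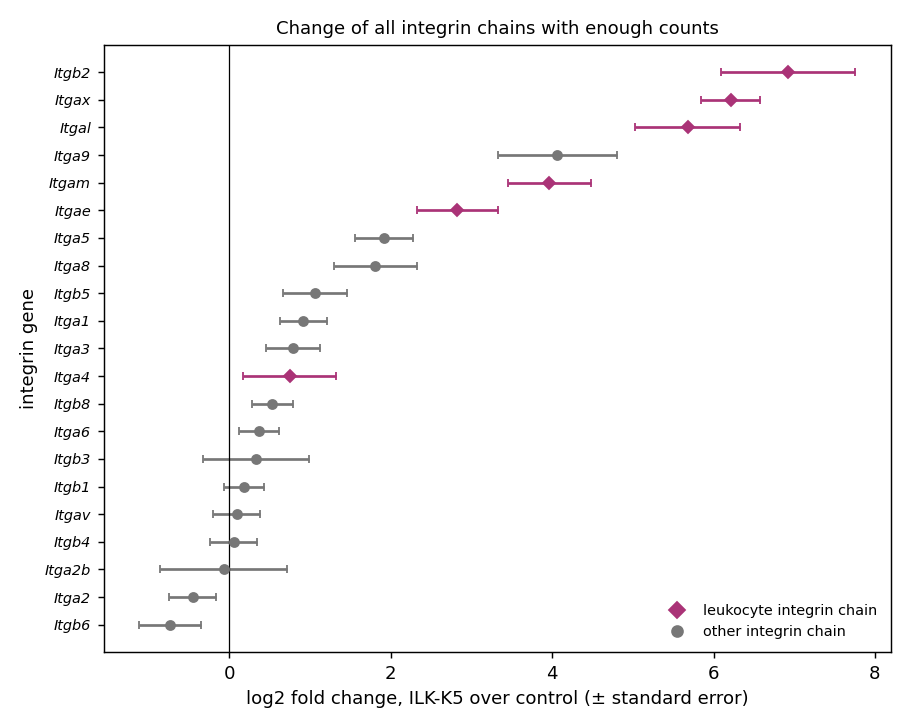
Log2 fold change with its SE, ILK-K5 against control, of the 6 fitted leukocyte integrins and the 15 other fitted integrin chains. The 4 β2 integrin genes lie at 3.96 or above, and of the other chains only Itga9, at 4.07, is as high.

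Integrins on leukocytes are held inactive until talin and kindlin bind the β tail, a step set off by the GTPase Rap1 and its adaptors. Of 16 such activators and adaptors 14 were fitted and 3 called higher, beside 2.93% of all genes in the fit (median log2 fold change 0.58): Fyb, Apbb1ip and Cytip. Fyb and Apbb1ip had a control mean under 10 normalized counts and entered the fit through the ILK-K5 libraries, so their calls are a description. Fyb, which encodes the adaptor ADAP, rose from 7.88 to 307 normalized counts (log2 fold change 5.16, SE 0.45, limma adjusted p = 0.0004), and 10.2% of its exon bases lie in other gene models. Cytip, a partner of cytohesin-1, rose from 25.5 to 371 (log2 fold change 3.75, SE 0.39, limma adjusted p = 0.0010). Apbb1ip, which encodes RIAM, the link from Rap1 to talin, rose from 6.64 to 121 (log2 fold change 4.30, SE 0.80, limma adjusted p = 0.0190), and its call was lost without control library 2 or any 1 of the ILK-K5 libraries. Fermt3, the kindlin of blood cells, was at 10.6, 1.52 and 2.18 in control and at 15.9, 39.3 and 42.9 in ILK-K5 libraries, all higher but not called (log2 fold change 2.78, SE 0.82, limma adjusted p = 0.134). The general members of the machinery did not pass the test: Fermt1, the kindlin of epithelia, had a log2 fold change of 0.48 (limma adjusted p = 0.779), Rap1a one of 0.51 (0.765) and Tln1, which encodes talin-1, one of 0.61 (0.384). Fermt3 and Tln1 were named after their values were seen.

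Signalling below leukocyte integrins runs through Src family kinases, adaptors with ITAM motifs and Syk to Vav, phospholipase Cγ2, the actin cytoskeleton and the phagocyte oxidase. All 26 listed genes were fitted and 20 were called, all higher, beside the 2.93% of all genes, with a median log2 fold change of 3.63. Of the 26 genes, 9 had a control mean under 10 normalized counts, Cybb and Fgr among them, and entered the fit through the ILK-K5 libraries. The list was also chosen with earlier results of these data known, so the calls are a description. The number called fell to 13 without control library 2, and leaving out ILK-K5 libraries 1, 2 and 3 in turn gave 13, 10 and 11. The catalytic chain of the phagocyte oxidase, Cybb, rose from 2.04 to 775 normalized counts (log2 fold change 8.09, SE 0.47, limma adjusted p = 0.0001). The ITAM adaptors Fcer1g, from 12.2 to 1166 (7.39, SE 1.004, limma adjusted p = 0.0036), and Tyrobp, from 10.4 to 556 (5.73, SE 0.53, limma adjusted p = 0.0005), rose as well. Of the Src family, Fgr rose from 1.21 to 176 (6.68, SE 0.75, limma adjusted p = 0.0014). The genes not called were Syk, Src, Plcg2, Vav3, Btk and Ncf4. Vav3 (log2 fold change 1.64, limma adjusted p = 0.101) and Plcg2 (1.04, 0.161) were both higher in all 3 ILK-K5 libraries than in any control library, and DESeq2 called Vav3 (adjusted p = 0.0292). The part of leukocytes among the sorted cells in these levels was not tested.

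**Figure D4:**
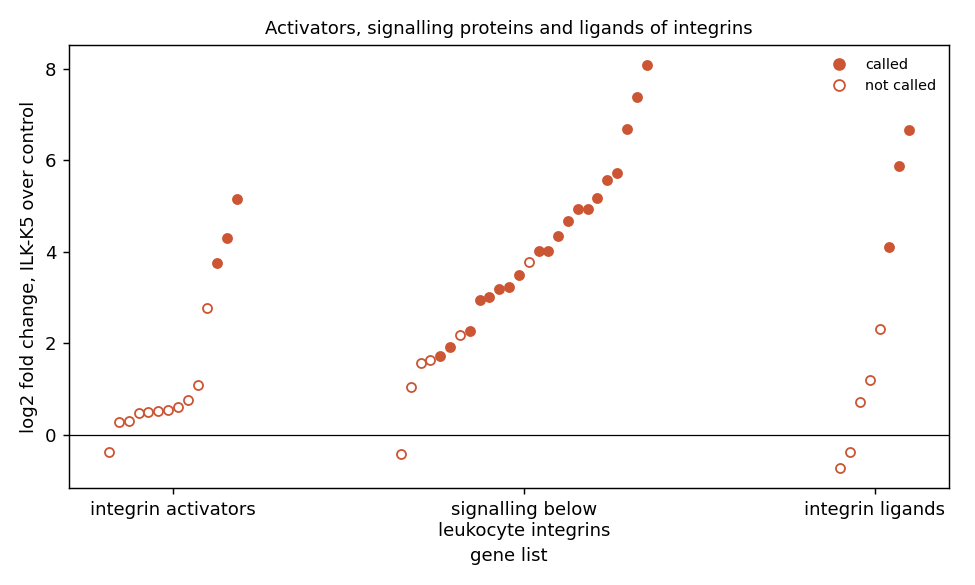
Log2 fold change, ILK-K5 against control, of the fitted integrin activators (14), genes of signalling below leukocyte integrins (26) and integrin ligands (8), with 1 point per gene, filled where limma called it. Most signalling genes are filled and lie above 0, while most activators are open.

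Of 19 ligands of the leukocyte integrins only 8 were fitted, with a median log2 fold change of 1.76. Of these, 3 were called higher, Fn1, Spp1 and C3, beside 2.93% of all genes in the fit. Of the 19, 6 had all ILK-K5 libraries above all control libraries and 1 had all below, against 10.9% and 6.95% of all genes in the fit. Fn1, fibronectin, a ligand of α4β1, rose from 157 ± 64.3 to 2645 ± 711 normalized counts (SD, n = 3; log2 fold change 4.10, SE 0.35, limma adjusted p = 0.0004). Spp1, osteopontin, was at 0, 4.56 and 0 in control and at 309, 119 and 155 in ILK-K5 libraries (limma adjusted p = 0.0021), and 18.8% of its exon bases lie in another gene model. Spp1 entered the fit through the ILK-K5 libraries, so its call is a description. C3, the complement component whose fragment iC3b binds αMβ2 and αXβ2, rose from 12.9 to 314 (log2 fold change 5.87, SE 1.09, limma adjusted p = 0.0191), and its call was lost with a pseudocount of 0.1, without control library 2 and without any 1 of the ILK-K5 libraries. Icam1, the ligand of αLβ2 and αMβ2, was at 6.75, 22.8 and 76.2 in control and at 50.1, 188 and 180 in ILK-K5 libraries, with overlap (log2 fold change 2.31, SE 0.84, limma adjusted p = 0.257). Vcam1, the ligand of α4β1, had between 0 and 0.726 in control and 27.3, 11.6 and 19.5 normalized counts in ILK-K5 libraries and was too low for the fit. Cdh1, E-cadherin, the ligand of αEβ7, had means of 3820 ± 872 and 2272 ± 152 (SD, n = 3; log2 fold change -0.73, SE 0.27, limma adjusted p = 0.263), lower in all 3 ILK-K5 libraries than in any control library but not called. F11r, which encodes JAM-A, a ligand of αLβ2, varied too widely within genotypes for a direction (log2 fold change -0.38, limma adjusted p = 0.940), which turned to 0.49 without control library 1 and to 0.34 without ILK-K5 library 3. Icam1 and Vcam1 were named after their values were seen.

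GEO's descriptions carry a number for each library that differs between the replicates of a genotype and is shared by 1 control and 1 ILK-K5 library, with its meaning not stated. The members were also compared within replicate 1 and within replicates 2 and 3, a split made here from the form of these numbers. With the first replicates alone, 1 library against 1, the log2 differences were 3.38 for Itgam, 6.90 for Itgax, 7.37 for Itgal, 4.85 for Itgb2, 0.08 for Itga4 and 3.34 for Itgae. With replicates 2 and 3 alone they were 4.26, 5.86, 4.84, 7.96, 1.08 and 2.57 in the same order. All were above 0 in both sets, and the sizes for Itgal and Itgb2 moved in opposite directions between the sets, with 1 read of Itgal in control library 1 and none of Itgb2 in control library 3.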

How the data were processed

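The authors amplified cDNA from total RNA of sorted cells (Ovation V2), prepared libraries with Nextera XT, sequenced read pairs and aligned them to GRCm38. The submitters' processing notes name TopHat2 2.0.14, Bowtie2 2.2.4 and DESeq2 1.6.3. The program that counted reads and its use of strand are not given in the sources used here, so reads on overlapping genes may be shared. The deposited signal is a normalized count, which the authors made by dividing reads per gene by a library size factor. All values (100%, tolerance 0.001) were whole reads after that factor was undone. The deposited FPKM is that value times 1 constant per gene. Tables of the authors' own comparison, with fold changes and p-values, were not used.

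The 16368 genes that averaged 10 or more normalized counts were compared between 3 control and 3 ILK-K5 libraries on log2(normalized count + 1) with limma 3.58.1 (lmFit, eBayes with trend; two-sided, Benjamini-Hochberg over all genes, called at 0.05) in R 4.3.3; on this scale the fold change of a gene near 0 in a library depends on the pseudocount. The labels do not say that libraries of a genotype came from separate mice, so p-values measure the spread between these libraries. The fit was tested on simulated counts with the same dispersion for every gene and no variation shared between libraries. That simulation does not cover such shared variation in the data. Symbols (97.3% of genes) and exons came from GENCODE M21, promoters from RefSeq. The count tests of edgeR 4.0.16 and DESeq2 1.42.0 ran on the recovered reads as alternatives, beside other pseudocounts and filters, terms for the replicate and libraries left out. Figures were drawn with matplotlib 3.10.9.

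The members and lists were chosen with earlier results of these data known. Named genes are the members, Itgad and Itgb1, from each list the 5 called genes with the largest change and the 2 most abundant not called, defining markers, and for 4 members the 3 genes of most similar profile. A few genes chosen this way were left out of the text. Itgam and the other members carry no p-value.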

Additional observations from a re-analysis of the deposited data

How the results depend on the processing

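All 5 members called kept their direction under each setting run, and of the 101 values recomputed for members 97 stayed on the same side of the limit and 4, all of Itgae, lost the call. The log2 fold change of Itgam lay between 3.28 and 4.32 with 1 library left out, that of Itgax between 6.01 and 6.39, of Itgal between 4.99 and 6.14, of Itgb2 between 5.96 and 7.84, of Itga4 between 0.19 and 1.39 and of Itgae between 2.56 and 3.06. With a limit of 50 normalized counts Itgae was not fitted, which left 4 members called. Leaving out 1 library gave 4 to 5 members called, 10 to 19 signalling genes, 2 to 4 activators, 2 to 3 ligands and 0 to 3 other integrin chains, with none of the latter without ILK-K5 library 2 or 3. Of 357 values of other named genes, 337 kept their side of the limit and their direction. The log2 fold change of Fcer1g was 7.39 with limma and 6.58 with DESeq2, and that of C3 5.87 and 4.56. The log2 fold change of F11r ranged from -1.26 to 0.49, turning to 0.49 without control library 1 and to 0.34 without ILK-K5 library 3.

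The main fit took no account of replicate numbers. Deviations from the genotype mean correlated at 0.53, 0.02 and 0.31 between same-numbered libraries, and not every library correlated best with its own number. Control library 3 stood at 0.50 with ILK-K5 library 2 and at -0.55 with ILK-K5 library 1. Control library 1 stood at -0.45 with ILK-K5 library 2. Variation shared across genotypes was thus left out of the main fit. The paper states that controls were littermates, and whether the numbers mark litters is not stated. With a replicate block, 5 members and 23 signalling genes were called higher, Vav3 among them (adjusted p = 0.0351), and over all genes 848 were higher and 269 lower, against 479 and 98 without it. The counts were 772 and 280 with DESeq2, 422 and 87 with edgeR, 846 and 286 with a term for replicate 1, and 222 to 559 and 32 to 98 with 1 library left out. The cause was not tested. Without the filter the median log2 fold change of all genes was -0.10.

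Few reads lie behind Itgb7 and the control values of Itgax, Itgal, Itgb2 and Itgae, which rest on 0 to 20 reads per library.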
